A study of Rattus norvegicus with 9 samples.

Results

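Involucrin (Ivl), cysteine-rich C-terminal 1 (Crct1), small proline-rich protein 2D (Sprr2d), repetin (Rptn) and caspase 14 (Casp14) are 5 genes of the cornified envelope and of the last steps of epidermal differentiation. They were taken by symbol from both deposited tables of rat back skin, which together hold 6197 gene IDs. 4 of the 5 were listed in the comparison of imiquimod-treated with untreated skin (Ivl, Crct1, Sprr2d, Rptn), 3 in that of imiquimod and lidocaine with imiquimod alone (Ivl, Rptn, Casp14), and 2 in both (Ivl, Rptn). RNA came from 9 samples of Sprague Dawley rats of 250 g body weight kept under specific-pathogen-free conditions, 3 in each of 3 groups. The IMQ_lidocaine rats were treated for 6 days on the back with imiquimod, an agonist of Toll-like receptor 7 that produces psoriasis-like inflammation, and epidural 1% lidocaine, a local anaesthetic that blocks sodium channels, for 4 days from day 3. The IMQ rats had the 6 days of imiquimod only. The WT rats were genetically wild type, as all 9 were, and had no treatment. Skin was taken on day 7. The labelled groups include neither vehicle-treated nor sham-injected rats, so effects of the vehicle or of handling cannot be told apart from those of the drugs.

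The cornified envelope is the insoluble protein shell that replaces the plasma membrane of a dying keratinocyte as it becomes a flake of stratum corneum. Involucrin and other scaffold proteins are laid down first, and transglutaminases then cross-link loricrin, small proline-rich proteins, late cornified envelope proteins and S100-fused proteins such as repetin onto them. Most of these proteins are encoded side by side in the epidermal differentiation complex. Caspase 14 is a keratinocyte protease that is processed during cornification and takes part in the breakdown of filaggrin. In psoriatic skin the small proline-rich proteins are known as markers of hyperproliferative, inflamed epidermis.

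Of these genes, RefSeq (assembly GRCr8) places Ivl, Crct1, Sprr2d and Rptn on chromosome 2 and Casp14 on chromosome 7, and its promoter table held 4 of the 5. The stretches before the annotated starts of Rptn, Sprr2d and Ivl are shown in lower case, with matches to the motifs searched in capitals, beside those of Sprr1b and Sprr1a, related genes that changed in opposite directions. Rptn, Sprr2d and Sprr1b were higher and Sprr1a and Ivl lower after imiquimod. Windows are given 5′ to 3′ on the gene's strand. Those of Rptn (chr2:181743213-181743462, plus strand) and Ivl (chr2:180846579-180846828, minus strand) cover the 250 bases before the start. That of Sprr2d (chr2:180566283-180566362, minus strand) covers the last 80 bases, and those of Sprr1b (chr2:180706376-180706505, minus strand) and Sprr1a (chr2:180752646-180752775, minus strand) cover positions -150 to -21.
Rptn: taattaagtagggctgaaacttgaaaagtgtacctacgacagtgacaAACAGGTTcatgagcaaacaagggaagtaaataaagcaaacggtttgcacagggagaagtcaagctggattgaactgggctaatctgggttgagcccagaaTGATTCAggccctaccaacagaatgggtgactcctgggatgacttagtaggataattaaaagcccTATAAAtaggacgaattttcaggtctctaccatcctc
Sprr2d: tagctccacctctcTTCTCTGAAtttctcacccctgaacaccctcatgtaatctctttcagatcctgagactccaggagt
Sprr1b: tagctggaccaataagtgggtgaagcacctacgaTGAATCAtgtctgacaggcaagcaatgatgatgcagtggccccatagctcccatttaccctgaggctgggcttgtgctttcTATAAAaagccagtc
Sprr1a: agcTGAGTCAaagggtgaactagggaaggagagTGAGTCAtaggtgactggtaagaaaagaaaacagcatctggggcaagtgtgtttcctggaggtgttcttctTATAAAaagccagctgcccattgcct
Ivl: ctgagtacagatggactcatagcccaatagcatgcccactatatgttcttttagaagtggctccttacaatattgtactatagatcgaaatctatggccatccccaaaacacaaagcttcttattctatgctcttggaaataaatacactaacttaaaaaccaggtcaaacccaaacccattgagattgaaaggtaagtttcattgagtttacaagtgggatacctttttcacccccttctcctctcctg

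The motifs were searched on both strands. For AP-1, TGANTCA was used, a loose form of its motif that takes any base in the middle. The others were AACCNGTT or AACNGGTT for grainyhead-like factors, TTCNNNGAA for STAT factors, GGGTGTGG and CCCCGCCC for Krüppel-like factors, and TATAAA. In the window of Rptn, counted from the annotated start as +1, AACAGGTT began at -203, TGATTCA at -102 and TATAAA at -37. Sprr1b held TGAATCA at -116 and TATAAA at -35, and Sprr1a, which changed in the other direction, held TGAGTCA at -147 and -117 and TATAAA at -46. The 300-base windows of Ivl and Casp14 held none of the motifs. Sprr2d held TTCTCTGAA at -66, but its annotated start is the ATG of the coding sequence, as are those of Casp14 and of 5 of the 19 chromosome 2 neighbours of the involucrin region with a window (Sprr2d, Sprr2a2, Sprr2b, Sprr2f and LOC102552128), so that the bases before it need not be a promoter. The start was an ATG in 3012 of all 33469 windows. Among those 19 genes, a TGANTCA match was present in 2 of 8 that rose after imiquimod (Rptn, Sprr1b) and in 5 of 10 that fell (Prr9, Sprr1a, Crnn, Tchh, Tchhl1). All 5 windows whose annotated start is an ATG belong to the 8 that rose. Shares of the 8 and of the 10 therefore rest on unlike windows and cannot be compared directly. A TTCNNNGAA match was present in 2 of the 8 (Sprr2d and Sprr2b, each with an ATG as its start) and 3 of the 10 (Prr9, Lce1l, Tchh). TATAAA was present in 4 of the 8 and 4 of the 10. A grainyhead-like match was present in Rptn alone, and a Krüppel-like match in none of the 19. Of all RefSeq windows of this length, 7.33% held TGANTCA, 2.10% a grainyhead-like motif, 8.87% TTCNNNGAA, 3.22% GGGTGTGG, 15.2% CCCCGCCC and 14.2% TATAAA. A match is a run of letters, and binding was not measured.

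Values are normalized counts, obtained by removing the log from the deposited log2(normalized count + 1). Reads on listed genes ranged from 15947423 to 22929894 per library in the IMQ and WT libraries and, on the 399 genes of the lidocaine table, from 417714 to 803921 per library in the IMQ_lidocaine and IMQ libraries. Each table holds only genes the authors had selected, with a difference of group means of at least 1.00 on the log2 scale in every row, so a gene that is absent is not listed rather than unchanged. Differences were tested with limma on the deposited values, with Benjamini-Hochberg adjustment over all rows of a table and a threshold of 0.05. Because rows were selected on the same libraries, the adjusted p-values are too small. In the imiquimod table, 5287 of 6025 rows (87.8%) passed, 47.0% as higher and 40.8% as lower in IMQ skin, and in 86.7% the libraries of the groups did not overlap. The count of members past the threshold therefore carries little by itself, and their direction and size are what is described here. IMQ_lidocaine replicate 1 stood apart from the other IMQ_lidocaine libraries in several of the genes below, and the log2 differences and 3-group levels that rest on it are given with and without it.

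Involucrin and Crct1 fell after imiquimod while Sprr2d and repetin rose, so the 4 listed envelope genes split evenly by direction. Ivl, the scaffold protein of the envelope, had 687, 410 and 320 normalized counts in IMQ skin, against 6296, 7728 and 5114 in WT skin. Even the highest IMQ library lay far below the lowest WT library. The means were 472 ± 191 in IMQ skin and 6379 ± 1309 in WT skin (SD, n = 3 each), 13.5 times higher in WT skin, and the log2 difference was -3.81 ± 0.38 (SE; limma adjusted p = 0.000491).

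Crct1, a small cysteine-rich protein encoded among the late cornified envelope genes, had 3784, 3891 and 3741 normalized counts in IMQ skin, against 15607, 21344 and 16706 in WT skin. The IMQ libraries lay close together and all below the WT libraries. WT skin had 4.70 times the mean of IMQ skin, and the log2 difference was -2.22 ± 0.26 (SE; limma adjusted p = 0.000906).

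Sprr2d, one of the short proline-rich proteins that bridge other envelope proteins, had 3820, 4866 and 5023 normalized counts in IMQ skin, against 43.8, 44.4 and 28.4 in WT skin. The WT values rest on 38, 43 and 28 reads. The groups were far apart, with means 118 times higher in IMQ skin and a log2 difference of 6.86 ± 0.30 (SE; limma adjusted p = 4.39e-05). Rptn, an S100-fused protein with glutamine-rich repeats, had 9803, 11481 and 8699 normalized counts in IMQ skin, against 181, 145 and 142 in WT skin. All 3 IMQ libraries were far above the WT libraries, with a mean 64.2 times higher and a log2 difference of 5.99 ± 0.27 (SE; limma adjusted p = 4.44e-05). These 4 calls held when any 1 library was left out. With 3 libraries a group, an exact two-sided permutation test of a single gene cannot go below p = 0.1, the value each of the 4 reached. In bulk skin, fewer cells of a type and less RNA per cell cannot be told apart.

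**Figure D1:**
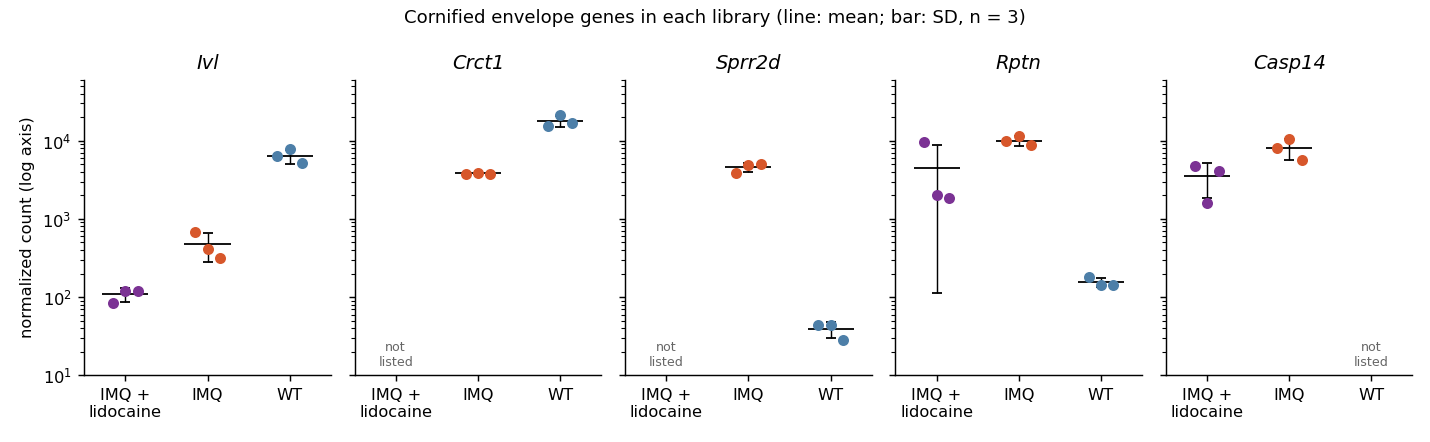
Normalized counts (log axis) of the 5 cornified envelope genes in each library of IMQ_lidocaine, IMQ and WT skin, with the mean (line) and SD (bar, n = 3). Ivl was lower in IMQ than in WT skin and lower again in IMQ_lidocaine skin, Sprr2d and Rptn were higher in IMQ than in WT skin, and groups for which a gene was in no table are marked as not listed.

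The small proline-rich family went beyond Sprr2d. Sprr1b, a related cross-bridging protein, had 11590, 19987 and 11205 normalized counts in IMQ skin, against 1321, 2223 and 892 in WT skin (log2 difference 3.32 ± 0.44, limma adjusted p = 0.00141). Its neighbour Sprr1a went the other way, with 43136, 66473 and 53628 normalized counts in IMQ skin, against 115661, 148481 and 112928 in WT skin (log2 difference -1.22 ± 0.29, limma adjusted p = 0.0102). Sprr3, which is typical of inner lining epithelia, had 0, 18 and 54 reads in IMQ skin and 0 reads in all WT libraries, and did not pass (limma adjusted p = 0.0578) except without IMQ replicate 1.

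Further rows were recognised as family members only by their description or by RefSeq's gene ID, after their values had been seen. LOC102550598, described as small proline-rich protein 2I-like, had 20617, 27076 and 20136 normalized counts in IMQ skin, against 21.9, 15.5 and 51.7 in WT skin. LOC102552651, Sprr2b in RefSeq, had 3828, 3780 and 3363 normalized counts in IMQ skin, against 27.6, 24.8 and 16.2 in WT skin. The likeness of their transcripts was not measured here, and the sources used here do not say how reads that match several members of the family were assigned, so their single values are uncertain. If each such read was counted once, their sum does not depend on how reads were divided among them. Reads that were discarded or counted for several members would change the sum, and unlisted copies could hold further reads. Over the 5 rows of the small proline-rich 2 group (Sprr2d, LOC102550598, LOC102552651, LOC102550416 and LOC108350059), the sum was 48030, 61720 and 54380 normalized counts in IMQ skin, against 659, 1007 and 371 in WT skin. IMQ skin had 80.6 times the mean of WT skin, and the groups did not overlap.

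Sprr4, listed as NEWGENE_2324572, had 186, 44.5 and 361 normalized counts in IMQ skin, against 7043, 5138 and 9792 in WT skin (log2 difference -5.60 ± 0.78, limma adjusted p = 0.00161). A late cornified envelope row, LOC100361951 (Lce3e in RefSeq), had 1439, 1772 and 1155 normalized counts in IMQ skin, against 10.4, 9.3 and 20.3 in WT skin. In human skin the LCE3 group is known as the one linked to psoriasis and barrier repair. The other late cornified envelope genes with a symbol that passed were lower in IMQ skin, namely Lce1m, Lce1l and Lce6a. Lce1m had 191, 289 and 38.4 normalized counts in IMQ skin, against 6557, 7241 and 7533 in WT skin. LOC102552128, described as late cornified envelope protein 1C-like, was higher in IMQ skin (log2 difference 1.83 ± 0.51, limma adjusted p = 0.0164).

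Placed in RefSeq order along chromosome 2, 21 of the 53 protein-coding genes of the stretch bounded by Loricrin and Tchhl1 were listed, of which 8 rose, 11 fell and 2 did not pass. The listed genes in the run of Sprr2a2 (LOC108350059), Sprr2b (LOC102552651), Sprr2d, Sprr2f (LOC102550416) and Sprr1b all rose. These are RefSeq's names, whereas the description of LOC108350059 is small proline-rich protein 2B. LOC102550598 was not matched to a gene of the stretch. Directly beyond Sprr3, Sprr1a, Sprr4, Ivl and Lce6a all fell. Crct1, Lce1m and Crnn, at the far side of the Lce3 genes, fell, and Rptn rose between Crnn on one side and Tchh and Tchhl1, which fell, on the other. Loricrin, Flg and Hrnr, which code for other main proteins of the stratum corneum, were not listed. In RefSeq, Rptn overlaps the gene model RGD1560208, and the sources used here do not say whether counting used strand.

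**Figure D2:**
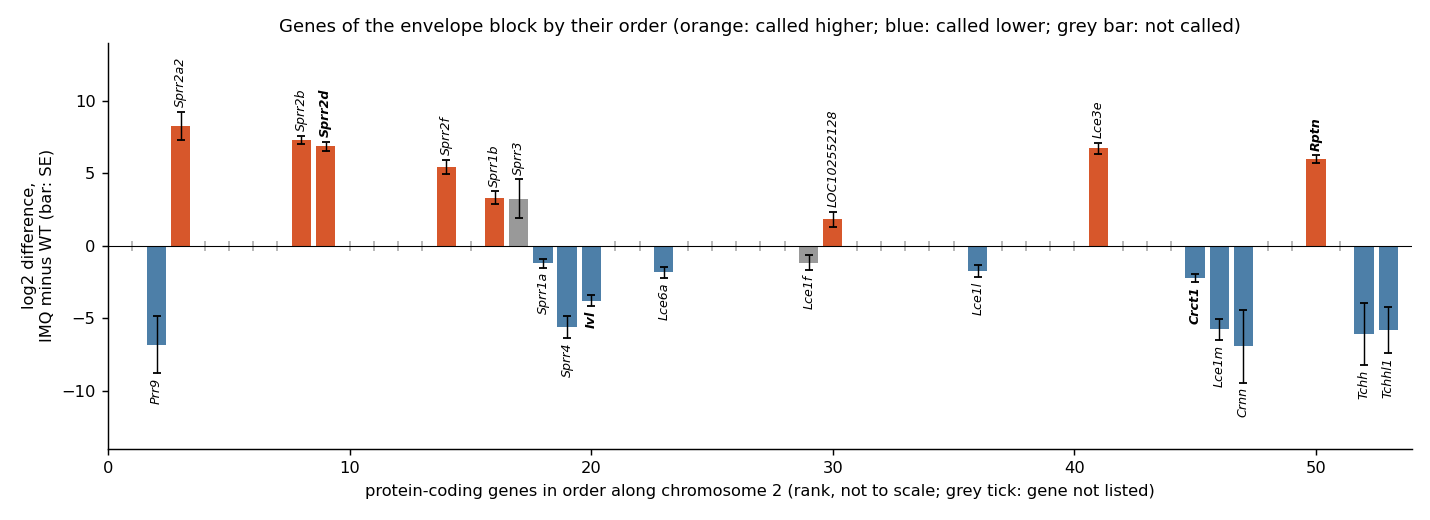
Log2 difference between IMQ and WT skin (bar: SE, 3 libraries each) of the listed genes, in the order of the 53 protein-coding genes of the stretch on chromosome 2, with members in bold type. The Sprr2 and Sprr1b bars point up, and Ivl lies among bars that point down. Crct1, which points down, lies between the raised Lce3e and the lowered Lce1m, and the Rptn bar points up between lowered neighbours.

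Across the lists of cornification, keratin and caspase genes, 65 other genes were listed by symbol, of which 27 rose, 34 fell and 4 did not pass. Their median log2 difference was -1.31. Rows recognised only by description or RefSeq are not among them. Over all 6025 rows 2831 rose and 2456 fell, and the median was 1.15. In 62 of the 65 the libraries of the groups did not overlap, against 5222 of all 6025 rows (86.7%). Of the 61 calls 48 (78.7%) held whichever library was left out, close to the 4048 of 5287 (76.6%) over all rows.

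Among 17 other precursors of the envelope listed by symbol, 2 rose (Sprr1b and Nccrp1), 13 fell and 2 did not pass (Lce1f and Sprr3). Their median log2 difference was -1.84. Over all rows 47.0% rose and 40.8% fell. The count leaves out the small proline-rich and late cornified envelope rows recognised only by description or RefSeq, of which all but Sprr4 rose. Nccrp1 lost its call without IMQ replicate 2 and Lgals7, whose groups overlapped, without IMQ replicate 2 or 3 or WT replicate 1 or 2 (lowest log2 difference with 1 library left out 1.01 for Nccrp1, and -2.09 to -1.18 for Lgals7), while Lce1f passed without IMQ replicate 2 (-1.52 to -0.71). Evpl, the plakin that links the envelope to keratin filaments, had 6948, 6742 and 6371 normalized counts in IMQ skin, against 19828, 24384 and 15868 in WT skin (log2 difference -1.56 ± 0.28, limma adjusted p = 0.00376). Cst6, a cystatin that inhibits the protease legumain, had 19219, 6650 and 20517 normalized counts in IMQ skin, against 173190, 205101 and 159351 in WT skin (log2 difference -3.69 ± 0.49, limma adjusted p = 0.00140). Lgmn, legumain itself, went the opposite way, with 65178, 49238 and 47442 normalized counts in IMQ skin, against 5980, 6136 and 6767 in WT skin (log2 difference 3.09 ± 0.27, limma adjusted p = 0.000297). Flg2, a filaggrin-like S100-fused protein, was at most 11 reads in any IMQ library and 15 to 66 reads in WT skin, and its call was lost without WT replicate 1 (lowest and highest log2 difference with 1 library left out -3.87 and -2.14) and without WT replicate 3.

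Crnn, Tchh, Tchhl1 and Prr9 also fell, but their IMQ libraries differed widely from one another. Tchh, the S100-fused protein of the inner root sheath of hair, had 7260, 103 and 56166 normalized counts in IMQ skin, against 270632, 198438 and 248940 in WT skin. Crnn, cornulin, had 765, 2.02 and 3740 normalized counts in IMQ skin, against 25519, 29918 and 20084 in WT skin. Both calls were lost without IMQ replicate 1 and without any 1 of the 3 WT replicates, with log2 differences of -9.01 to -3.88 for Crnn and -8.09 to -3.55 for Tchh with 1 library left out. Prr9 lost its call without WT replicate 2 (-8.68 to -4.54). The same order of IMQ libraries, with replicate 2 lowest and replicate 3 highest, was seen in the peptidylarginine deiminases Padi1, Padi3 and Padi4, which also fell (the call of Padi3 was lost without any 1 of the 3 WT replicates, -8.46 to -4.20), and in the sum of the list of hair and inner root sheath markers. Among the list genes that fell, Cst6, Abhd5, Notch1, Ovol2 and Krt23 had that order as well, which makes 12 of 34 (35.3%), against 559 of all 2456 rows that fell (22.8%). Outside the lists, so did Sprr4, which fell, and LOC108350059, which rose. Of that list, which includes Tchh, 15 of 18 were listed and all 15 were lower, none was at 0 in every library, and the sum of normalized counts was 52133, 1353 and 262650 in IMQ skin, against 3050330, 4019270 and 2075880 in WT skin. The part of hair follicles in the values of all these genes was not tested. Ivl, Crct1, Sprr2d and Rptn did not follow that order of the IMQ libraries.

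Of the transglutaminases that cross-link the envelope, Tgm3 and Tgm2 were listed and both rose, and Tgm1 and Tgm5 were not listed. Tgm3, the epidermal transglutaminase, had 32984, 35398 and 28832 normalized counts in IMQ skin, against 11313, 12351 and 7894 in WT skin (log2 difference 1.64 ± 0.29, limma adjusted p = 0.00377). Tgm2, the widely expressed tissue transglutaminase, had a log2 difference of 1.26 ± 0.37 (limma adjusted p = 0.0186) and lost its call without IMQ replicate 2 or 3 or WT replicate 1 or 2 (1.07 to 1.54 with 1 library left out).

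Among 24 proteases, deiminases and inhibitors of filaggrin processing and shedding, 11 were listed, 6 of them higher and 5 lower. The kallikreins of the list with a row (Klk6, Klk7, Klk8, Klk13 and Klk14) all rose, Klk8 not without IMQ replicate 2 (log2 difference 1.13 to 1.65 with 1 library left out). Klk6 had 59214, 59265 and 56164 normalized counts in IMQ skin, against 6910, 8914 and 7034 in WT skin (log2 difference 2.94 ± 0.25, limma adjusted p = 0.000299), and Klk13 had a log2 difference of 2.97 ± 0.35 (limma adjusted p = 0.000911). Klk7, which degrades corneodesmosomes, rose by a log2 difference of 1.05 ± 0.26 (limma adjusted p = 0.0111). Prss8 and St14, the membrane-bound serine proteases prostasin and matriptase, fell. Prss8 had 1344, 1299 and 1221 normalized counts in IMQ skin, against 6212, 8533 and 5460 in WT skin (log2 difference -2.36 ± 0.28, limma adjusted p = 0.000974).

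Of 8 corneodesmosome genes, the cadherins Dsg1 and Dsc1 rose and the plakophilin Pkp3 fell. Dsg1 had 25816, 50277 and 36888 normalized counts in IMQ skin, against 14135, 11398 and 15610 in WT skin. Dsc1 lost its call without IMQ replicate 2 or 3 or WT replicate 1 or 2 (log2 difference 1.02 to 1.70 with 1 library left out). Of 20 lipid envelope and barrier lipid genes, 8 were listed, 5 higher and 3 lower. The 5 were the lamellar body lipid transporter Abca12, the acylceramide enzymes Alox12b and Sdr9c7, the glucosylceramide synthase Ugcg and the lipase Lipn, which lost its call without IMQ replicate 2 or WT replicate 2 (log2 difference 0.88 to 1.19 with 1 library left out). Ugcg had 10501, 12940 and 11108 normalized counts in IMQ skin, against 2988, 2969 and 3588 in WT skin (log2 difference 1.86 ± 0.26, limma adjusted p = 0.00159). The 3 lower ones were the alkaline ceramidase Acer1 (log2 difference -2.77 ± 0.36, limma adjusted p = 0.00125), the lipase Lipm and the lipase coactivator Abhd5.

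Of 33 regulators of keratinocyte differentiation, 9 were listed, 2 higher, 6 lower and 1 not past the threshold (Arnt). Fosl1, an AP-1 subunit, had 761, 597 and 695 normalized counts in IMQ skin, against 200.4, 215 and 112 in WT skin (log2 difference 2.00 ± 0.34, limma adjusted p = 0.00334). Jund, another AP-1 subunit, had 6383, 2895 and 3837 normalized counts in IMQ skin, against 22064, 26221 and 14348 in WT skin (log2 difference -2.29 ± 0.41, limma adjusted p = 0.00392). Grhl3, a grainyhead-like factor of the barrier, rose by a log2 difference of 1.20 ± 0.25 (limma adjusted p = 0.00660). Gata3, Vdr, Ovol1, Ovol2 and Notch1 also fell, of which Ovol2 lost its call without WT replicate 2 or 3 (log2 difference -1.88 to -1.10 with 1 library left out). Arnt passed without IMQ replicate 1 or WT replicate 3 (0.76 to 1.40). Of 15 suprabasal, basal and stress keratins, 9 were listed, 2 higher, 6 lower and 1 not past the threshold. Krt16, the keratin of wounded and psoriatic epidermis, had 155654, 133962 and 94142 normalized counts in IMQ skin, against 3249, 6653 and 2481 in WT skin (log2 difference 5.05 ± 0.45, limma adjusted p = 0.000325). Krt77, another type II keratin of the family of Krt1, had 0, 9 and 83 reads in IMQ skin, against 12452, 29718 and 50409 reads in WT skin (limma adjusted p = 0.00125). Krt14, a basal keratin, also rose. Krt1, a suprabasal keratin, had a log2 difference of -1.44 ± 0.67 (limma adjusted p = 0.0765), and passed only without IMQ replicate 1 (-1.91 to -0.70 with 1 library left out).

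Casp14 was not listed in this comparison, whereas 6 other genes of the caspase list were, and all 6 rose. They were the inflammatory caspases Casp1, Casp4 and Casp12, the initiators Casp8 and Casp9, and Casp8ap2, which codes for a caspase 8-associated protein and not a caspase. Casp1 had 6793, 7552 and 7626 normalized counts in IMQ skin, against 970, 1096 and 1212 in WT skin (log2 difference 2.75 ± 0.25, limma adjusted p = 0.000358). Leukocytes also express most of these. Of 10 leukocyte markers 9 were listed and all 9 rose, with sums of 166311, 162356 and 223904 normalized counts in IMQ skin, against 6937, 6101 and 12586 in WT skin, and their part in the caspase values was not tested. Of the other markers, 6 of 7 of the sebaceous gland were listed and all 6 were lower, 3 of 6 of fibroblasts were listed with 2 lower, 3 of 4 of fat were listed with 2 lower, and none of 5 of muscle was listed. Of 10 keratinocyte markers 3 were listed, Krt14 as higher, Krt15 as lower (a call lost without IMQ replicate 3 or any 1 WT replicate, log2 difference -4.55 to -2.08) and Krt1 as not past the threshold, so epidermal RNA was present in both groups. Their sum was 353341 to 799135 normalized counts in IMQ skin, against 400855 to 497570 in WT skin.

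**Figure D3:**
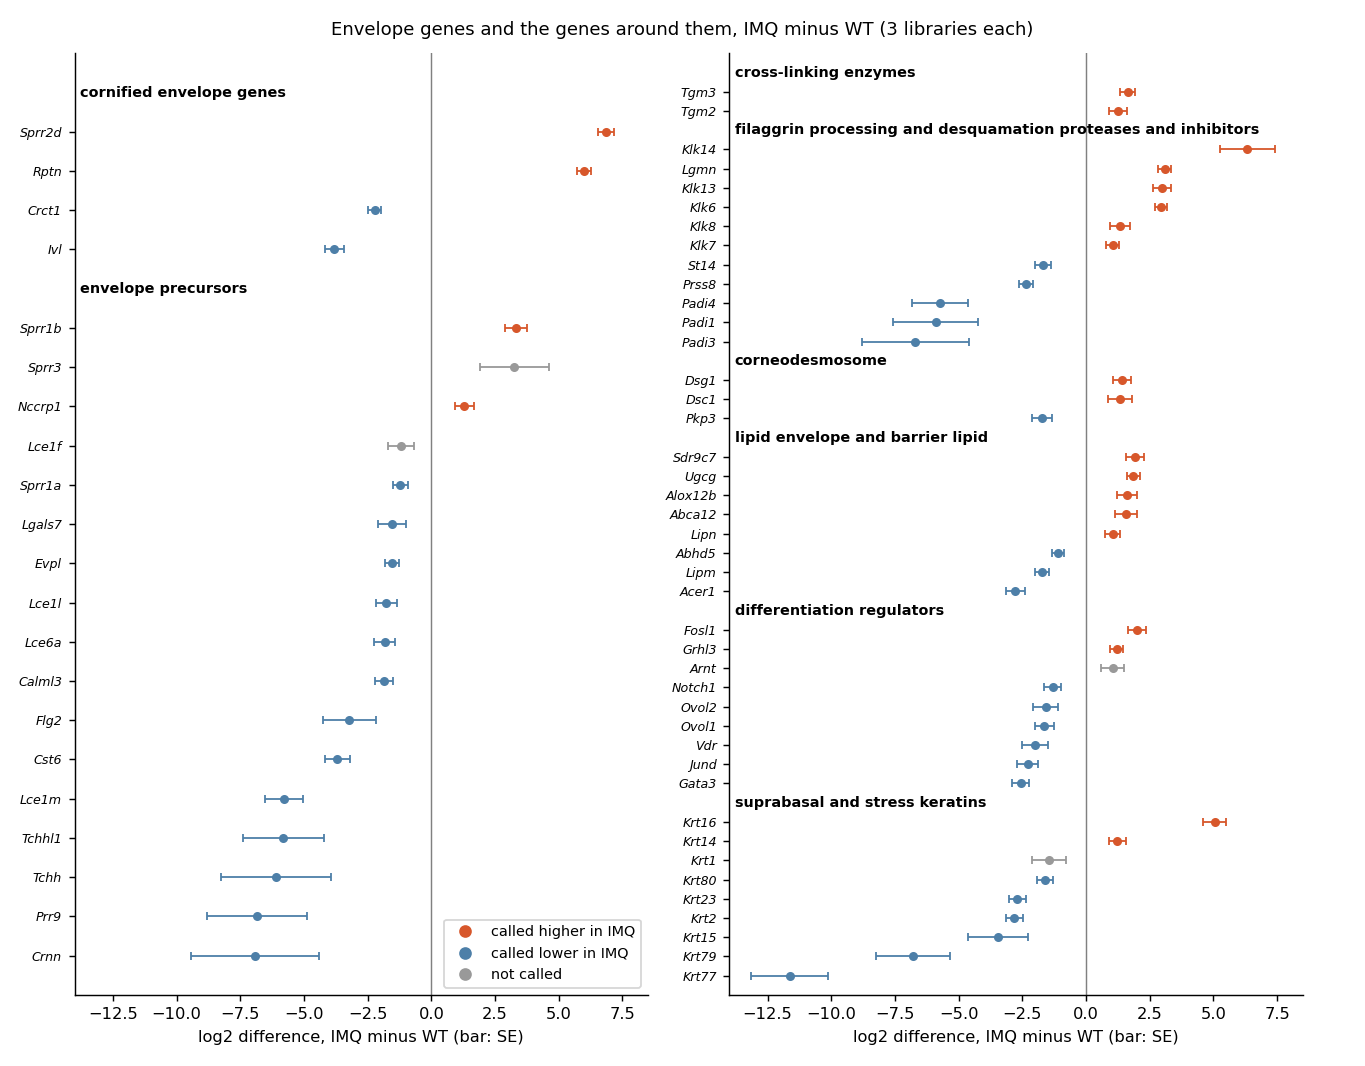
Log2 difference between IMQ and WT skin (point; bar: SE; 3 libraries each) of the 4 listed cornified envelope genes and of the lists of precursors, enzymes, junction, lipid, regulator and keratin genes, coloured by whether limma called them higher or lower. Most precursors drawn lie left of 0 beside Ivl and Crct1, and the kallikreins, transglutaminases and most lipid genes lie right of it beside Sprr2d and Rptn. Rows recognised only by description or RefSeq, most of which rose, are not drawn.

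The genes whose pattern over the 6 IMQ and WT libraries was most like that of a member were found by the root mean square difference of centred log2 values among 4108 named rows whose mean reached 100 normalized counts. For Crct1 they were Rasl11b (0.0474), Prss8 (0.124) and Fasn (0.133). For Ivl they were Cox6b2 (0.200), Fam25a (0.266) and Ccdc155 (0.293). For Sprr2d they were Mx2 (0.275), LOC102552651 (0.279) and Lpo (0.286), so that another small proline-rich gene was among its 3 nearest. For Rptn they were Dhx58 (0.169), XAF1 (0.214) and Ebi3 (0.244). The likeness is a description, since with 2 groups it mostly measures the size of the group difference.

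With lidocaine, the 3 listed members were all lower in IMQ_lidocaine than in IMQ skin on average, and only Ivl passed the threshold. Of all 399 rows, 268 had a negative difference too. Of the same rows 32.1% passed, 21.1% as lower, and in 71.9% the groups did not overlap. Ivl had 84.5, 119 and 122 normalized counts in IMQ_lidocaine skin, against 687, 410 and 320 in IMQ skin. These rest on 86, 139 and 98 reads in IMQ_lidocaine skin and 789, 405 and 392 in IMQ skin, and the groups did not overlap. The log2 difference was -2.06 ± 0.49 (SE; 95% interval -3.14 to -0.97; limma adjusted p = 0.0191). The call was lost without IMQ replicate 1, the library with the most Ivl reads (log2 difference -1.75, limma adjusted p = 0.0655). It was also lost with a pseudocount of 10 (limma adjusted p = 0.0627) and among rows whose mean reached 100 normalized counts (limma adjusted p = 0.0797), settings in which limma called 0 rows of the table, and when p-values were adjusted for 23154 protein-coding genes. Over the whole table the rows called lower numbered 84, and 10 without IMQ replicate 1.

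Rptn had 9483, 2043 and 1860 normalized counts in IMQ_lidocaine skin, against 9803, 11481 and 8699 in IMQ skin. IMQ_lidocaine replicate 1 lay within the range of the IMQ libraries and the other 2 far below it. The log2 difference was -1.59 ± 0.65 (95% interval -3.04 to -0.13; limma adjusted p = 0.0672) and did not pass, while without IMQ_lidocaine replicate 1 it was -2.35 and passed (limma adjusted p = 0.0244). Casp14 had 4782, 1605 and 4106 normalized counts in IMQ_lidocaine skin, against 8144, 10349 and 5604 in IMQ skin. The groups did not overlap, but the log2 difference of -1.30 ± 0.55 (95% interval -2.54 to -0.06) did not pass (limma adjusted p = 0.0699), also when any 1 library was left out. IMQ_lidocaine replicate 2, the lowest for Casp14, was also the lowest for the suprabasal keratins Krt1 and Krt10, whose sum was 97847, 15783 and 85991 normalized counts in IMQ_lidocaine skin, against 311439, 268561 and 56416 in IMQ skin. The part of those keratinocytes in the Casp14 values was not tested. Crct1 and Sprr2d were not listed in the lidocaine table, nor were any of the hair, sebaceous, leukocyte, fibroblast, muscle or fat markers.

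Of the genes in the cornification lists, 11 were listed in the lidocaine table. All 11 differences were negative, as were 268 of all 399. Their median was -1.21 against -1.17 over all 399 rows, and limma called 0 of the 11. At an unadjusted p under 0.05 there were 5 of the 11, against 275 of all 399. Scel, the envelope precursor sciellin, had 4211, 1571 and 1683 normalized counts in IMQ_lidocaine skin, against 4418, 5886 and 5276 in IMQ skin (log2 difference -1.21 ± 0.52, limma adjusted p = 0.0702). Spink5, the inhibitor of epidermal kallikreins, had 7321, 2002 and 3723 normalized counts in IMQ_lidocaine skin, against 6777, 10124 and 7448 in IMQ skin (log2 difference -1.08 ± 0.56, limma adjusted p = 0.0913). As for Rptn, IMQ_lidocaine replicate 1 lay near the IMQ libraries in both. Without that library 6 of the 11 passed, all lower, while 106 of all 399 rows (26.6%) passed as lower. That library was singled out for its values in some of these same genes, so the count without it carries little by itself. The 6 were Scel, Spink5, Dsc1, Dsg1, Lipm and Rora, with log2 differences without it of -1.67, -1.55, -2.004, -1.71, -1.77 and -1.69 in that order. Tp63, the master regulator of stratified epithelia, had 2747, 2860 and 2458 normalized counts in IMQ_lidocaine skin, against 5988, 5273 and 5572 in IMQ skin. The groups of Tp63 were well apart, yet its log2 difference of -1.06 ± 0.43 did not pass (limma adjusted p = 0.0667). Grhl1, Krt1, Krt2 and Krt10 made up the rest of the 11.

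**Figure D4:**
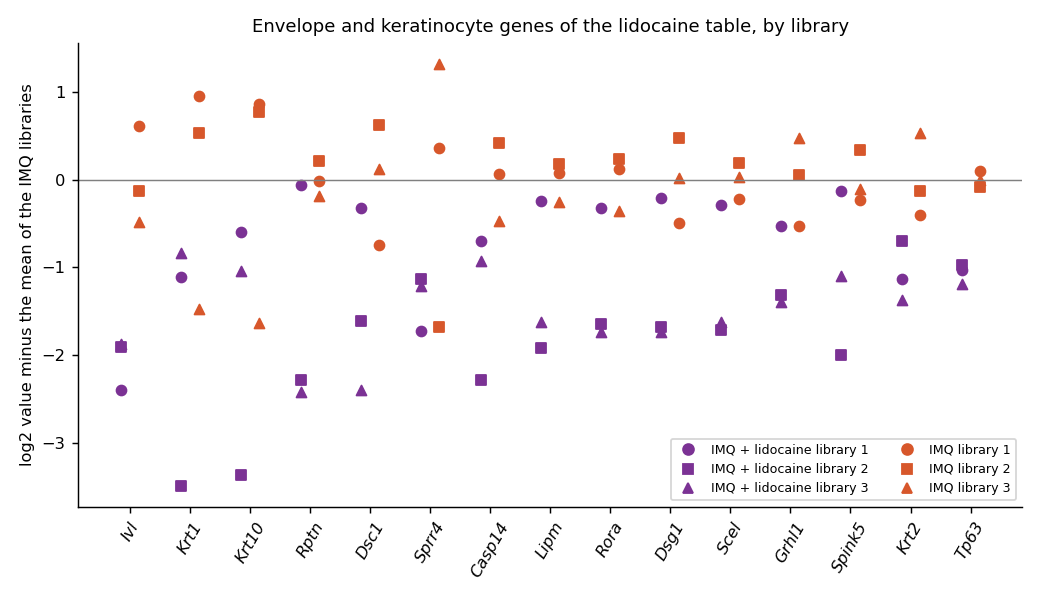
Log2 value of each library minus the mean of the IMQ libraries for the members, the list genes and Sprr4 in the lidocaine table, with IMQ_lidocaine libraries to the left of IMQ libraries and 1 symbol per library number. IMQ_lidocaine library 1 lies close to 0 for Rptn, Scel, Spink5, Dsg1, Dsc1 and Lipm, where libraries 2 and 3 lie lower, and all 3 IMQ_lidocaine libraries lie well below 0 for Ivl.

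The nearest patterns over the 6 libraries of the lidocaine table were sought among 200 rows. For Rptn they were LOC688553 (0.188), the membrane serine protease Tmprss11f (0.235) and Muc15 (0.318). For Casp14 they were the short-chain dehydrogenases Sdr16c5 (0.208) and Sdr16c6 (0.239) and Xkrx (0.253). For Ivl they were Hist1h4m (0.437), LOC100361866 (0.531) and Ano9 (0.540), which were less close than those of the other members.

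The IMQ values were identical in both tables, so the levels of Ivl and Rptn can be set side by side in all 3 groups, although the comparisons share the IMQ libraries and IMQ_lidocaine skin was not tested against WT skin. Ivl averaged 108 ± 20.8 normalized counts in IMQ_lidocaine skin, 472 ± 191 in IMQ skin and 6379 ± 1309 in WT skin (SD, n = 3 each). Its levels were in that order in every library, without overlap, and the WT mean was 58.8 times that of IMQ_lidocaine skin. Rptn averaged 4462 ± 4349 normalized counts in IMQ_lidocaine skin, 9994 ± 1401 in IMQ skin and 156 ± 21.7 in WT skin. IMQ_lidocaine and IMQ skin overlapped, and IMQ_lidocaine skin had 28.6 times the mean of WT skin. Replicate 1 sets much of that mean. Without it the other 2 IMQ_lidocaine libraries averaged 1952 normalized counts, 12.5 times the WT mean and below every IMQ library.

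Of the list genes, 5 were in both tables, as was Sprr4. Dsg1 averaged 17862 ± 11647 normalized counts in IMQ_lidocaine skin, 37660 ± 12249 in IMQ skin and 13714 ± 2137 in WT skin, and IMQ_lidocaine and WT libraries overlapped. Dsc1 averaged 2945 ± 2147 in IMQ_lidocaine skin, 7215 ± 3165 in IMQ skin and 2788 ± 943 in WT skin, again with overlap of IMQ_lidocaine and WT libraries. In both cadherins replicate 1 was the highest IMQ_lidocaine library and lay above every WT library. Without it the other 2 IMQ_lidocaine libraries averaged 11138 normalized counts for Dsg1. Their values, 11354 and 10923, lay only just below the lowest WT library (11398). For Dsc1 they averaged 1735 and still overlapped the WT libraries. Lipm, Krt1, Krt2 and Sprr4 followed the order of Ivl on average, with and without replicate 1. Lipm averaged 833 normalized counts in IMQ_lidocaine skin (513 without replicate 1), 1755 in IMQ skin and 5798 in WT skin. Sprr4 averaged 56.8 ± 11.9 normalized counts in IMQ_lidocaine skin, 197 ± 159 in IMQ skin and 7324 ± 2340 in WT skin, and its difference between IMQ_lidocaine and IMQ skin did not pass (log2 difference -1.35 ± 0.72, limma adjusted p = 0.0951) except without IMQ replicate 2 (-2.19 to -0.70 with 1 library left out).

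**Figure D5:**
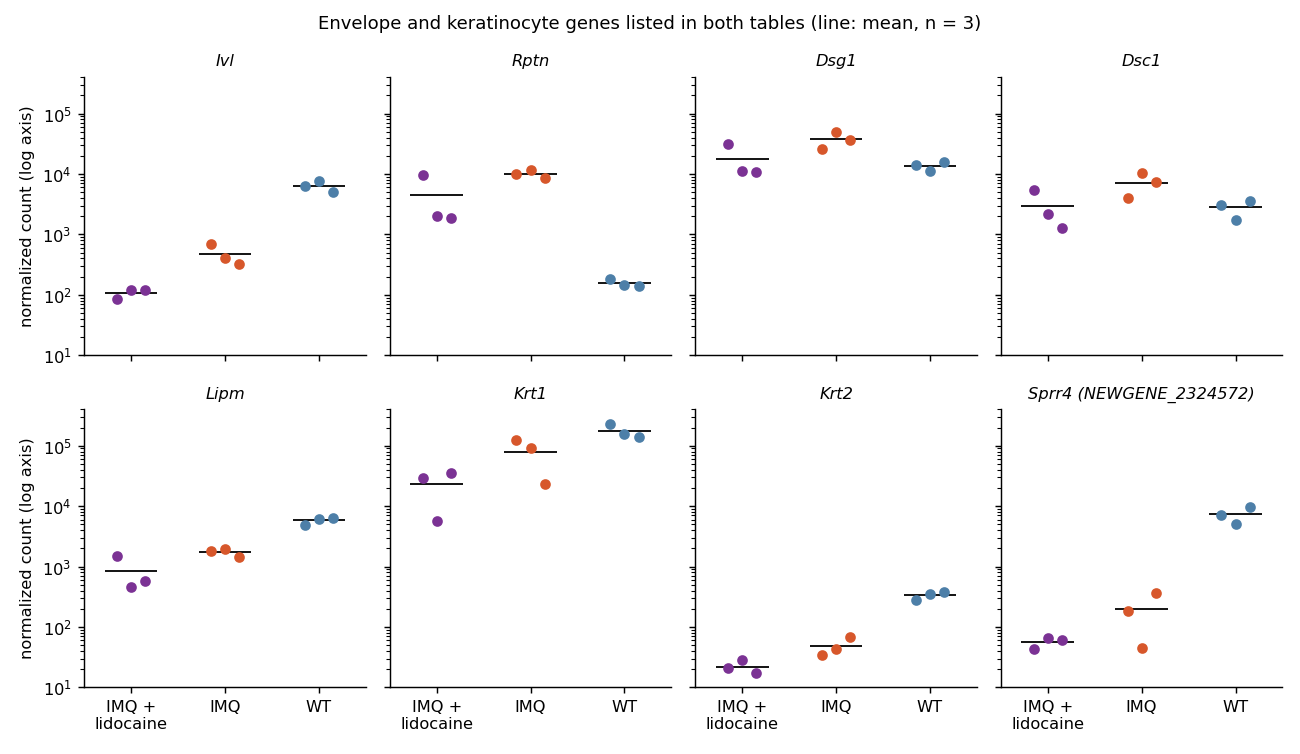
Normalized counts (log axis) of Ivl, Rptn, the other list genes in both tables and Sprr4 in each library of IMQ_lidocaine, IMQ and WT skin, with the mean (line, n = 3). Ivl is lowest in IMQ_lidocaine and highest in WT skin with no overlap, Rptn is high in IMQ_lidocaine and IMQ skin and low in WT skin, and the ranges of the IMQ_lidocaine and WT points of Dsg1 and Dsc1 overlap, for Dsg1 through replicate 1 alone.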

How the data were processed

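RNA of 9 rat back skin samples in 3 groups of 3 was measured, grouped by sample title. Total RNA came from frozen, ground skin by TRIzol, per the labels' protocols. Per the submitters' processing notes, STAR 2.5.3a, bcl2fastq and DESeq2 were used. For counting tool, build, annotation and strand setting, nothing is given in the sources used here. The authors deposited log2(normalized count + 1) for selected genes only (6025 and 399 rows), so scaling could not be rechecked. All low values, once unlogged, were whole multiples (within 0.01) of 1 step per library, which gave reads.

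Each table was fitted alone with limma 3.58.1 (lmFit, eBayes) in R 4.3.3, with no block, after checks on simulated data. The labels do not state separate animals, so p-values reflect only the spread among these libraries. Members and lists were chosen with earlier results of these data known. Named are the members, every listed gene of the lists where values warrant, and 3 nearest genes per member. RefSeq (GRCr8) gave names, order and windows. Some list genes are not reported here. Alternatives covered leaving out a library, a replicate block, pseudocounts 0.1 and 10, a mean of at least 100, a variance trend, adjustment for 23154 genes, a threshold of 0.01 and permutation. Python 3.11.15, numpy 2.4.6 and pandas 2.3.3 were used.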

Additional observations from a re-analysis of the deposited data

How the results depend on the processing

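The log2 differences between IMQ and WT skin of Ivl, Crct1, Sprr2d and Rptn kept their direction and their call in all settings but the exact permutation test, whose values (-3.81, -2.22, 6.86 and 5.99) came with p = 0.1, the smallest it allows. With 1 library left out they ran from -4.11 to -3.56, -2.31 to -2.08, 6.65 to 6.98 and 5.89 to 6.11. At a threshold of 0.01, 16 of the 65 list genes were higher and 21 lower, against 1889 higher and 1391 lower of all 6025 rows. Between IMQ_lidocaine and IMQ skin, Ivl kept its direction but lost its call with a pseudocount of 10 (log2 difference -1.97, limma adjusted p = 0.0627), among rows whose mean reached 100 normalized counts (-2.06, limma adjusted p = 0.0797), adjusted for all protein-coding genes (-2.06, limma adjusted p = 1.0), in the exact permutation test (-2.06, p = 0.1) and without IMQ replicate 1; with 1 library left out it ran from -2.30 to -1.75, Rptn from -2.35 to -1.17 and Casp14 from -1.60 to -0.81. The list genes called lower numbered 0 to 6 with 1 library left out. Over all 399 rows, limma called 44 higher and 84 lower in IMQ_lidocaine skin, against 26 and 30 with a pseudocount of 0.1, 0 and 0 with 10 (and among rows whose mean reached 100), 1 and 1 adjusted for all protein-coding genes, 8 and 5 at a threshold of 0.01, and 12 to 41 and 10 to 106 with 1 library left out. The cause of these shifts was not tested. Same-numbered samples did not deviate together (correlations -0.02, -0.23 and -0.01 between IMQ and WT, and -0.18, -0.09 and -0.06 between IMQ_lidocaine and IMQ). No sample correlated best with its own number. With 3 libraries a group and rows selected for a group difference, this cannot exclude that the numbers pair samples. The labels do not say what the numbers mark. With a replicate block the calls of the members were kept (Ivl between IMQ_lidocaine and IMQ skin: limma adjusted p = 0.0349), and the list genes called in IMQ skin were 24 higher and 35 lower. Depth limits, among others, Flg2, Sprr3 and the WT level of Sprr2d, which rest on few reads. The same holds for the WT levels of Klk14, LOC108350059, LOC100361951, LOC102550598 and LOC102552651. The limma intervals reflect the spread among libraries.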
